A study of Mus musculus with 3 samples.

Results

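The genes described here are 7 immune checkpoint genes of the mouse cornea, 2 ligands and 5 receptors, among the 30406 Ensembl genes listed in all 3 libraries. They were chosen by name: Cd274, Pdcd1lg2, Pdcd1, Ctla4, Lag3, Tigit and Icos. All 7 were found by Ensembl ID in every library. Single-nucleus RNA was sequenced from snap frozen whole corneas, with nuclei of 5 mice pooled into 1 library per group at 7 wk of age. The WT library came from untreated wild-type mice, the KO library from untreated Aire knockout mice, and the KO_PBS library from Aire knockout mice given phosphate-buffered saline (PBS) for 14 days. By their labels both knockout libraries share the loss of Aire, a gene that drives the display of self antigens in the thymus, and Aire-deficient mice are used as a model of autoimmune dry eye. Unlike these labels, the series text names 6 wk of age, day 7 of treatment and a group given lacripep, which is not analysed here.

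Checkpoint genes tune how strongly T cells respond. PD-L1 (Cd274) and PD-L2 (Pdcd1lg2) are surface proteins that bind PD-1 (Pdcd1) on activated T cells and dampen signalling from the T cell receptor, and interferon gamma is a well known inducer of Cd274 through JAK kinases and IRF1. In the cornea, PD-L1 is known from epithelium and endothelium and is one of the molecules behind the immune privilege of the tissue. CTLA-4, LAG-3 and TIGIT are further inhibitory receptors of T cells, whereas ICOS gives a costimulatory signal.

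Levels are unique molecular identifiers (UMIs, each 1 captured RNA molecule) of a gene as a share of all UMIs of its library, on the CPM scale, with exact 95% Poisson intervals that cover counting error only. With 1 library per group there is no replicate check, no test and no p-value. Comparisons of groups below are between libraries, and comparisons of sets of barcodes are within a library. A gene is called higher or lower by a rule of size: at least 50 UMIs over both libraries, a ratio of at least 2 and intervals that do not overlap. In nuclei pooled from whole tissue, more cells of a type and more RNA per cell cannot be told apart over a library.

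The libraries held between 178988562 and 352627863 UMIs in 96587 to 114357 barcodes, with a median of 1422 to 2970 UMIs per barcode. Aire, the targeted gene, had few UMIs in all of them, with 15 for WT, 27 for KO and 68 for KO_PBS. Its level in the library labelled KO_PBS was called higher, at 6.52 times WT (3.69 to 12.3) and 4.98 times KO (3.14 to 8.09). Of all genes, 57.0% and 39.9% were called higher in these comparisons. Relative to the median gene the Aire ratios were 2.71 and 3.22. No loss of Aire RNA was thus seen in that library, and UMI counts cannot show whether the Aire protein was lost. KO and WT together had too few Aire UMIs for a call, so Aire gives no support to the genotype labels and libraries are named as labelled throughout. Immune markers were higher in both knockout libraries than in WT. WT had 16.6 CPM of the 14 T cell markers, KO 225 and KO_PBS 226. The 10 macrophage markers summed to 104, 1373 and 1372 CPM, and none of either list was at 0 in any library. The KO_PBS library stood apart in RNA of other eye tissues: 8 lens markers summed to 418 CPM (WT), 165 (KO) and 7043 (KO_PBS), and 8 photoreceptor markers to 128, 47.0 and 1962 CPM. Melanocyte markers summed to 492, 171 and 4210 CPM. Corneal epithelium markers were lowest in KO_PBS, at 45623 (WT), 32759 (KO) and 18766 CPM (KO_PBS). Between 2.62% and 3.16% of the barcodes of a library recurred in any 1 other library.

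The ligand Cd274 was detected in all 3 libraries and was higher in both knockout libraries than in WT. Cd274 (ENSMUSG00000016496, GRCm38 chr19:29367455-29388095, plus strand) had 7785 UMIs in WT, 30.4 CPM (29.7 to 31.1). KO held 24396 UMIs, 69.4 CPM (68.6 to 70.3), and KO_PBS held 22358, 126 CPM (124 to 127). The 3 intervals were apart, with WT lowest and KO_PBS highest. The ratio was 2.28 between KO and WT (2.23 to 2.34) and 4.13 between KO_PBS and WT (4.03 to 4.24). Between KO_PBS and KO it was 1.81 (1.78 to 1.84), under the size the rule asks for. An annotated antisense gene, AC119228.1, overlaps exons of Cd274 and is listed with 530 UMIs in WT and 1462 in KO but is not listed in KO_PBS, so reads of the pair may have been assigned differently in that library, which was not tested.

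Pdcd1lg2, the second PD-1 ligand, lies 22.8 kb downstream of Cd274 on the same strand and followed another order. Pdcd1lg2 (ENSMUSG00000016498, GRCm38 chr19:29410919-29471161) had 32 UMIs in WT, 0.125 CPM (0.0855 to 0.177). KO had 2318 UMIs, 6.60 CPM (6.33 to 6.87), and KO_PBS had 644, 3.62 CPM (3.35 to 3.91). KO was highest and WT lowest, with no overlap of intervals. The ratio was 52.8 between KO and WT (37.3 to 77.3) and 29.0 between KO_PBS and WT (20.3 to 42.7). KO_PBS stood at 0.549 of KO (0.502 to 0.599), short of the 2-fold size. Set against the macrophage markers, Pdcd1lg2 had 0.120 UMIs per 100 marker UMIs in WT (0.0820 to 0.169), 0.480 in KO (0.461 to 0.50) and 0.264 in KO_PBS (0.244 to 0.285), so its order over libraries was the same on that scale. A930007I19Rik, an antisense gene within the same region that shares no exon with Pdcd1lg2, had 584, 1576 and 1051 UMIs.

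The 250 bases before the annotated starts of these neighbouring ligand genes are printed because the genes lie side by side and both were higher in the knockout libraries. They are from RefSeq (GRCm38.p6, both plus strand, chr19:29367188-29367437 for Cd274 and chr19:29410669-29410918 for Pdcd1lg2), and capitals mark the only match to the motifs described here.
Cd274: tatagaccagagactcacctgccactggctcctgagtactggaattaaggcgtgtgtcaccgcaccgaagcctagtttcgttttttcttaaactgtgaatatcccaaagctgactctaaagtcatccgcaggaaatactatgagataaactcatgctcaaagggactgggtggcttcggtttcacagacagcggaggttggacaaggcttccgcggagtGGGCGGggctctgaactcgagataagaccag
Pdcd1lg2: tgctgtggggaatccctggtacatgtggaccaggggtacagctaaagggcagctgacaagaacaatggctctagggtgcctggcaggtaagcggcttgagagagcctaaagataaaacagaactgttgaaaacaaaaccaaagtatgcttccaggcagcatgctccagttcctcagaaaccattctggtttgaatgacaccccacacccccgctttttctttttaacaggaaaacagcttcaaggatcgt

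Cd274 held 1 GC box (GGGCGG) that began 31 bases before the RefSeq start, and Pdcd1lg2 held none. For Cd274 that start lies upstream of the gene start given above, 29367455, which is from GENCODE. A GC box is present in 32.7% of the 32851 promoter windows of this length in the table, and of the 5 members with an entry Pdcd1 also held 1, beginning 77 bases before its start. No entry of the 5 matched the IRF element, a pair of GAAA repeats spaced 2 bases apart (in 2.98% of all windows), or the TATA box TATAAA (12.4%). Both strands were searched, and the GC and TATA boxes were added after the planned search gave no match.

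Among the receptors, Icos and Pdcd1 had the largest ratios between KO and WT. Icos (ENSMUSG00000026009, chr1:60977927-61000320), the costimulatory receptor of activated T cells, had 40 UMIs in WT, 0.156 CPM (0.112 to 0.213). KO had 5357 UMIs, 15.2 CPM (14.8 to 15.7), and KO_PBS had 1421, 7.99 CPM (7.58 to 8.42). Its level was highest in KO, at a ratio of 97.6 to WT (71.5 to 137), and KO_PBS stood at 51.1 times WT (37.4 to 71.9) and at 0.524 of KO (0.494 to 0.556). Pdcd1 (ENSMUSG00000026285, chr1:94038305-94052553), which encodes PD-1, had 31 UMIs in WT, 0.121 CPM (0.0823 to 0.172). KO had 1985 UMIs, 5.65 CPM (5.40 to 5.90), and KO_PBS had 652, 3.67 CPM (3.39 to 3.96). Its order was again KO, KO_PBS, WT, with ratios of 46.6 (32.8 to 68.8) and 30.3 (21.1 to 44.9) to WT.

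Lag3 was the 1 receptor whose level was highest in KO_PBS. Lag3 (ENSMUSG00000030124, chr6:124904361-124911705), whose product binds MHC class II, had 44 UMIs in WT, 0.172 CPM (0.125 to 0.231). KO had 1581 UMIs, 4.50 CPM (4.28 to 4.73), and KO_PBS had 2095, 11.8 CPM (11.3 to 12.3). The ratio was 26.2 between KO and WT (19.4 to 36.2), 68.5 between KO_PBS and WT (50.9 to 94.6) and 2.62 between KO_PBS and KO (2.45 to 2.80). Tigit (ENSMUSG00000071552, chr16:43648867-43664146), an inhibitory receptor for the ligand Pvr, had few UMIs. There were 17 in WT, 0.0664 CPM (0.0387 to 0.106). KO had 477 UMIs, 1.36 CPM (1.24 to 1.49), and KO_PBS had 164, 0.922 CPM (0.787 to 1.07). Tigit was 20.4 times higher in KO than in WT (12.6 to 35.4) and 13.9 times higher in KO_PBS than in WT (8.41 to 24.4), with the interval of KO_PBS below that of KO.

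Ctla4 had the smallest ratios to WT among the receptors. Ctla4 (ENSMUSG00000026011, chr1:60887000-60915832), which competes with CD28 for Cd80 and Cd86, lies 62.1 kb upstream of Icos. It had 497 UMIs in WT, 1.94 CPM (1.77 to 2.12). KO had 2751 UMIs, 7.83 CPM (7.54 to 8.13), and KO_PBS had 1291, 7.26 CPM (6.87 to 7.67). The KO and KO_PBS intervals overlapped. The ratio was 4.03 between KO and WT (3.66 to 4.45) and 3.74 between KO_PBS and WT (3.37 to 4.15). A pseudogene, Rpl18-ps1, overlaps Ctla4 on the same strand without sharing an exon and is on no library's gene list. Gm37039 overlaps Icos in the same way. Whether their reads were counted for Ctla4 or Icos was not tested.

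**Figure D1:**
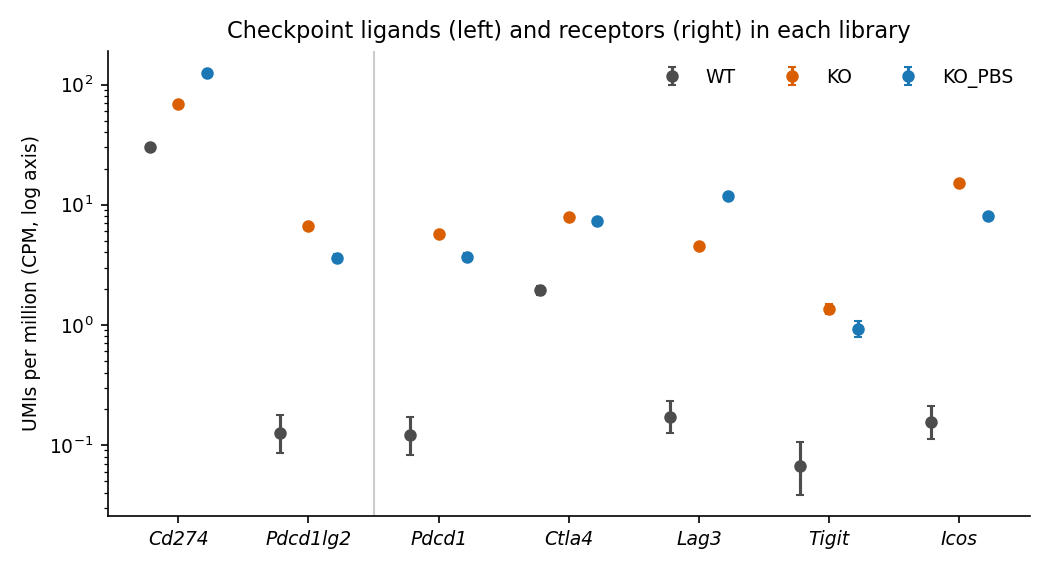
Level of each checkpoint gene in the 3 libraries, in CPM on a log axis, with exact 95% Poisson intervals. WT (grey) is lowest for all 7 genes, KO_PBS (blue) is highest for Cd274 and Lag3, and KO (orange) has the highest value for the other 5.

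By the rule of size, 7 of 7 members were higher in KO than in WT, where 20.6% of the 20252 genes with enough UMIs were higher. Against WT, KO_PBS also had 7 of 7 higher, where 57.0% of all genes were. The median log2 ratio of the members was 4.71 in KO and 4.86 in KO_PBS, beside 0.24 and 1.27 for all genes. The comparisons share libraries, so they are not independent. Relative to the median gene, 6 members stayed past the rule in KO against WT, without Cd274 (log2 0.95), where 14.8% of all genes were higher and 12.9% lower, against 8.63% lower before centring. In KO_PBS against WT 5 stayed, without Cd274 (0.78) and Ctla4 (0.63), where 29.6% were higher and 23.1% lower, against 4.06% lower before.

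Between KO_PBS and KO, Lag3 alone of the 7 was called higher, where 39.9% of 22416 genes were, and none was called lower, where 4.7% were. The members' median log2 ratio was -0.56, beside 0.63 for all genes. Relative to that median, Lag3 no longer passed (0.76), where 29.9% of all genes were higher, and Icos (-1.56), Pdcd1lg2 (-1.50), Pdcd1 (-1.25) and Tigit (-1.19) were called lower, where 12.9% of all genes were. No member changed the sign of its ratio with this centring. The lens, photoreceptor, melanocyte and corneal epithelium RNA of the KO_PBS library, given above, differs along with these ratios. Its part in them was not tested.

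**Figure D2:**
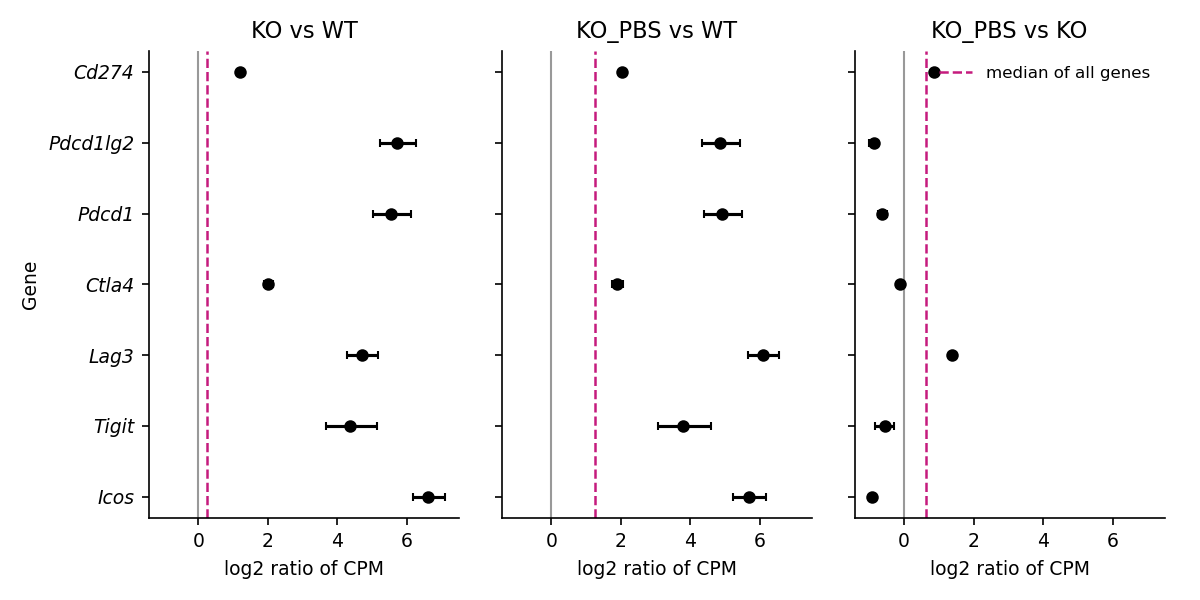
Log2 ratio of each checkpoint gene in the 3 comparisons, with exact 95% intervals for counting error, a grey line at no difference and a dashed line at the median of all genes. Against WT all 7 points lie right of the dashed line, and between KO_PBS and KO 5 of the 7 ratios lie below 0.

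The mix of receptors differed between libraries. Ctla4 made up 79.0% of the 629 receptor UMIs in WT (exact binomial 95% interval 75.6 to 82.1), 22.6% of 12151 in KO (21.9 to 23.4) and 23.0% of 5623 in KO_PBS (21.9 to 24.1). Icos took 6.36% in WT (4.58 to 8.56), 44.1% in KO (43.2 to 45.0) and 25.3% in KO_PBS (24.1 to 26.4). Lag3 took 7.00% in WT (5.13 to 9.28), 13.0% in KO (12.4 to 13.6) and 37.3% in KO_PBS (36.0 to 38.5). These are shares of captured molecules, and the genes differ in length and exon number, so each share is read across the libraries.

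**Figure D3:**
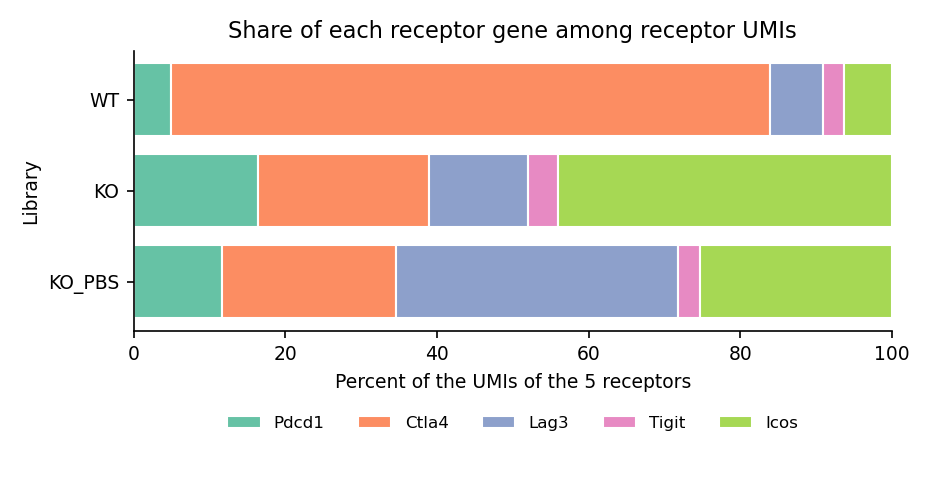
Percent of the UMIs of the 5 receptor genes that each receptor took in each library. The Ctla4 segment takes 79.0% of the WT bar, Icos 44.1% of the KO bar and Lag3 37.3% of the KO_PBS bar.

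Receptor UMIs were then set against T cell RNA of the same library. Per 100 UMIs of the 14 T cell markers the 5 receptors together had 14.8 in WT (13.6 to 16.1), 15.4 in KO (15.1 to 15.7) and 14.0 in KO_PBS (13.6 to 14.4). In WT, however, Bcl11b (1645) and Skap1 (1015) supplied most of the 4242 marker UMIs. Per 100 UMIs of Cd3d, Cd3e and Cd3g, chains of the T cell receptor complex, the sum was 194 in WT (170 to 223), 63.7 in KO (62.3 to 65.2) and 88.4 in KO_PBS (85.3 to 91.7). The near equality over libraries therefore held for the full list and not for the CD3 chains. On both scales the WT sum rests mostly on Ctla4, with 497 of the 629 receptor UMIs, so it does not describe the other receptors.

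For single receptors the order of the libraries partly depended on the scale. Pdcd1 had 9.57 UMIs per 100 CD3 UMIs in WT (6.39 to 13.9), 10.4 in KO (9.93 to 10.9) and 10.3 in KO_PBS (9.44 to 11.1), with all 3 intervals overlapping. Per 100 UMIs of the 14 markers it had 0.731 (0.496 to 1.04), 2.51 (2.40 to 2.62) and 1.62 (1.50 to 1.76), lowest in WT and with the intervals apart. Tigit had 5.25 per 100 CD3 UMIs in WT (3.02 to 8.53), 2.50 in KO (2.28 to 2.74) and 2.58 in KO_PBS (2.20 to 3.01), with WT highest. Per 100 marker UMIs it had 0.401 (0.233 to 0.642), 0.603 (0.550 to 0.660) and 0.409 (0.348 to 0.476), where the interval of WT overlapped both others.

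Ctla4 was highest in WT on both scales, but which cells held its UMIs was not tested. It had 153 UMIs per 100 CD3 UMIs in WT (133 to 177), 14.4 in KO (13.9 to 15.0) and 20.3 in KO_PBS (19.1 to 21.6), and 11.7 (10.7 to 12.9), 3.48 (3.35 to 3.61) and 3.22 (3.04 to 3.40) per 100 marker UMIs. Icos was lowest in WT and highest in KO on both, with 12.3 (8.66 to 17.2), 28.1 (27.2 to 29.0) and 22.3 (21.1 to 23.7) per 100 CD3 UMIs and 0.943 (0.673 to 1.29), 6.77 (6.59 to 6.96) and 3.54 (3.36 to 3.73) per 100 marker UMIs. Lag3 was highest in KO_PBS on both, but its lowest library differed. It had 13.6 (9.68 to 18.6), 8.29 (7.87 to 8.73) and 32.9 (31.3 to 34.6) per 100 CD3 UMIs, lowest in KO, and 1.04 (0.753 to 1.39), 2.00 (1.90 to 2.10) and 5.22 (4.99 to 5.45) per 100 marker UMIs, lowest in WT. LAG-3 is also made by other lymphocytes, such as natural killer cells, and which cells held these molecules was not tested on either scale.

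To see where the genes were found, the 500 barcodes with the largest excess of markers over expectation were taken for each of 15 marker lists in each library. Such sets are ranges of a score and not cell types. The neutrophil list had only 331 UMIs in WT, so its WT set includes barcodes without an excess. In the T cell marker-rich barcodes of KO, the receptors summed to 172 UMIs, 2.68 times their level over all barcodes of the library (2.29 to 3.11). In KO_PBS they summed to 122 UMIs, 3.89 times (3.23 to 4.64), and in WT to 8 UMIs, 2.67 times (1.15 to 5.26). Receptor RNA was thus denser in these barcodes in KO and KO_PBS, while the WT value rests on 8 UMIs. The sets held 172 of the 12151 receptor UMIs of KO and 122 of the 5623 of KO_PBS. Most receptor RNA therefore lay outside them, and the sets do not show which cells held it.

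All 5 receptors were at least 2-fold higher there in KO, where 1.19% of genes outside the marker list were, and all 5 in KO_PBS, where 2.88% were. With 200 or 1000 barcodes in the set all 5 passed in KO but 4 in KO_PBS, without Ctla4 (2.06 times with an interval of 0.830 to 4.25, and 1.86 times with an interval of 1.21 to 2.75). In KO their folds ran from 2.34 for Ctla4 to 3.18 for Tigit. In KO_PBS Icos (50 UMIs, 6.31, interval 4.68 to 8.32) and Pdcd1 (22 UMIs, 6.05, interval 3.79 to 9.16) were highest, and Lag3 (28 UMIs, 2.40, interval 1.59 to 3.46) was lowest. Among the receptors in WT, Icos with 3 UMIs and Pdcd1 with 2 passed, where 15.7% of genes did, and Ctla4 had 3 UMIs at 1.27 times its library level (0.261 to 3.70). At this depth WT does not place the receptors. The ligand Pdcd1lg2 had 5 UMIs in this set of WT, 32.8 times (10.7 to 76.5), 23 in KO, 1.88 times (1.19 to 2.82), and 7 in KO_PBS, 1.95 times (0.783 to 4.01).

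Pdcd1lg2 was densest in macrophage marker-rich barcodes of the knockout libraries. It had 31 UMIs there in KO, 2.54 times its library level (1.72 to 3.60), where 1.11% of genes were at least 2-fold higher. It had 20 UMIs in KO_PBS, 5.20 times (3.18 to 8.04), where 3.28% were. With 2318 Pdcd1lg2 UMIs in all of KO and 644 in all of KO_PBS, most lay outside these sets. In WT Pdcd1lg2 had 0 UMIs in the set, with an interval that reaches 16.2 times the library level, and 4.16% of genes passed. Pdcd1 (3.08, interval 1.59 to 5.39) and Icos (2.59, interval 1.63 to 3.93) also passed in the macrophage set of KO_PBS, which shared 8 barcodes with the T cell set, while in KO, where the sets shared 2 barcodes, no receptor did. Pdcd1lg2 in the B cell marker-rich barcodes of KO_PBS had 13 UMIs, 3.90 times its library level (2.08 to 6.68).

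**Figure D4:**
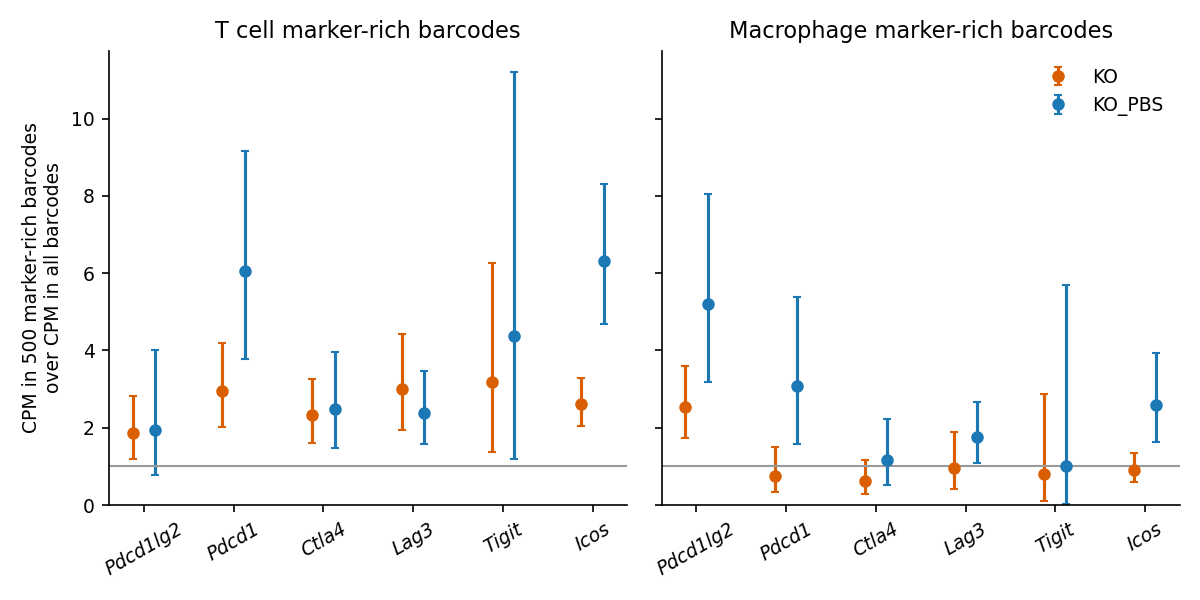
CPM of Pdcd1lg2 and the 5 receptors in T cell and macrophage marker-rich barcodes, divided by CPM in all barcodes of the same library, with exact 95% Poisson intervals. In the T cell panel all receptor points lie above 2 in KO (orange) and KO_PBS (blue), and in the macrophage panel Pdcd1lg2 is the highest point of both libraries.

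Cd274 was spread over many barcodes. Receptor genes were spread as well: in KO, Icos had 5357 UMIs in 5041 barcodes and Pdcd1 had 1985 in 1955. The spread is therefore not particular to Cd274 and does not show which cells held it. Cd274 was found in 7046 barcodes of WT (7.29%), 20896 of KO (19.5%) and 18078 of KO_PBS (15.8%), most with 1 UMI. Thinned to 1000 UMIs per barcode, with 265, 226 and 16860 shallower barcodes left out, the share was 3.06% in WT (exact binomial 95% interval 2.95 to 3.17), 6.79% in KO (6.64 to 6.95) and 10.9% in KO_PBS (10.7 to 11.1). Equal depth thus put KO_PBS above KO, as the CPM does. Of the unthinned carriers, 6.07% in WT, 5.54% in KO and 5.55% in KO_PBS had a barcode that recurs in another library, beside 5.95%, 5.73% and 5.50% of all barcodes.

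Free RNA can give a barcode a Cd274 UMI, and its part in these shares was not tested. The barcodes richest in photoreceptor markers held a median of 7 (WT), 4 (KO) and 28 (KO_PBS) marker UMIs, so they need not be photoreceptors and are no background free of Cd274. They held a Cd274 UMI in 6.0% of cases in WT (4.08 to 8.45, median 2322.5 UMIs), 19.4% in KO (16.0 to 23.1, median 3097.5) and 16.6% in KO_PBS (13.4 to 20.2, median 2149). These intervals include the share over all barcodes in WT, KO and KO_PBS, and a single Cd274 UMI in a barcode is not read as expression. In CPM the photoreceptor set had 0.96, 0.99 and 0.66 times the library level, and only in KO_PBS did its interval (0.540 to 0.795) lie below 1.

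Across the 15 marker lists Cd274 passed the 2-fold rule in 1 set, the conjunctival epithelium marker-rich barcodes of KO_PBS. There it had 832 UMIs, 545 CPM (508 to 583), 4.33 times its library level (4.04 to 4.64), where 4.5% of genes passed. The same list gave 86 UMIs, 1.45 times (1.16 to 1.78), in WT and 166 UMIs, 1.22 times (1.05 to 1.43), in KO, where 1.28% and 0.743% of genes passed. In KO_PBS Krt13 and Muc4 supplied 33.7% and 29.5% of the marker UMIs of this set. Macrophage marker-rich barcodes had 1.72 times the library level in KO_PBS (1.50 to 1.95), and the ratios of the corneal epithelium set were 0.67, 0.57 and 0.99 (WT, KO, KO_PBS). In WT that set held its own markers at only 1.37 times their library level, against 5.39 times for the conjunctival set. Its WT ratio therefore does not show that Cd274 is low in corneal epithelium. Corneal endothelium marker-rich barcodes had 0.64 in WT (0.436 to 0.900), 1.15 in KO (0.970 to 1.35) and 0.73 in KO_PBS (0.625 to 0.848).

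**Figure D5:**
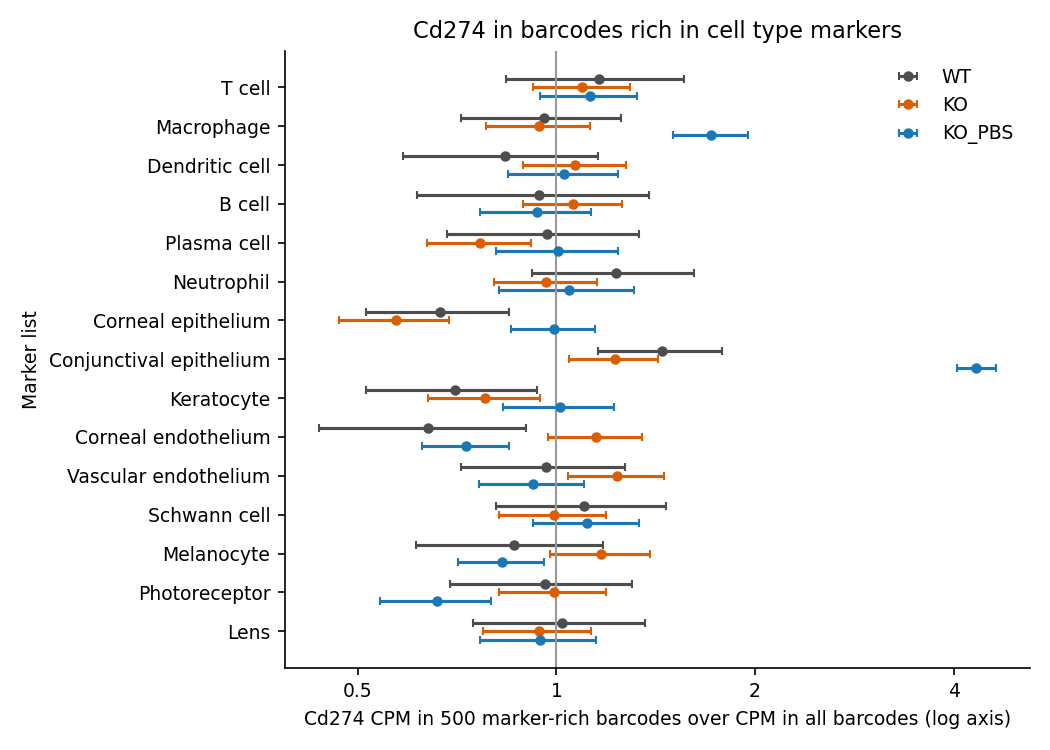
Cd274 CPM in the 500 barcodes richest in each list of markers, divided by CPM over all barcodes of that library, on a log axis with exact 95% Poisson intervals. The conjunctival epithelium set of KO_PBS (blue) stands at 4.33, and every other point lies below 2.

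Barcodes with many Cd274 UMIs were mostly those of KO_PBS. At least 5 UMIs were found in 19 barcodes of WT, 14 of KO and 208 of KO_PBS, and the highest counts in 1 barcode were 10, 6 and 19. These barcodes held 1.40%, 0.299% and 6.71% of all Cd274 UMIs of their libraries, so the bulk of Cd274 lay elsewhere. Their median totals were 4170 UMIs (WT), 5687 (KO) and 3461.5 (KO_PBS), above the 2233, 2889 and 1388 of barcodes without Cd274, and doublets were not removed, whose part was not tested. Of the 208 in KO_PBS 7 had a barcode found in another library. In KO_PBS the Cd274 level also climbed with barcode depth, from 109 CPM in the shallowest 25% of barcodes to 144 in the deepest 25%. These values were 31.4 and 28.7 in WT and 71.3 and 70.1 in KO.

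Genes that accompany Cd274 were ranked by their UMIs in barcodes with at least 2 Cd274 UMIs (558 for WT, 2993 for KO, 2609 for KO_PBS) over the UMIs expected from barcodes of like depth without Cd274. The 8 genes with the highest value in their lowest library, of 8608 with at least 20 UMIs in these barcodes in each, were Lce3f, Lce3a, Cnfn, Ripor3, Crct1, 1190028D05Rik, Noxo1 and Asb11. Lce3a and Lce3f encode late cornified envelope proteins, and Cnfn (cornifelin) and Crct1 are likewise genes of differentiating, cornifying epithelium. Lce3a had 5.91 times its expected UMIs in WT (5.57 to 6.27), 1.59 in KO (1.48 to 1.71) and 2.87 in KO_PBS (2.78 to 2.95). Crct1 had 5.94, 1.45 and 2.35 times, and 1190028D05Rik 5.28, 1.42 and 6.13. KO was the weakest library for all 8 genes, with ratios from 1.40 to 1.74, so KO set their ranks. Some of its UMIs were concentrated. In the 14 KO barcodes with at least 5 Cd274 UMIs, 1 barcode held 118 of 136 Lce3a UMIs. The highest barcode there held 17 of 20 Lce3f UMIs and 16 of 19 Crct1 UMIs.

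No gene reached 2-fold in all 3 libraries. At that size 1.3% of genes passed in WT, 0.0644% did in KO, and 1.6% in KO_PBS. The 8th gene stood at 1.40 in its lowest library and the 9th at 1.37, so the boundary is narrow. No other checkpoint gene had 20 UMIs in these barcodes of WT, so none could be named. Pdcd1lg2 had 40 UMIs in these barcodes of KO_PBS, 1.94 times the expected number (1.38 to 2.64), and 104 in KO, 1.17 times (0.959 to 1.42).

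In barcodes with at least 5 Cd274 UMIs, a choice made after the distribution was seen, 4 genes are given as a description, since they were chosen for their high values in this set. Lce3a had 244 UMIs in the 19 barcodes of WT, 32.7 times the expected number (28.8 to 37.1), and 1977 in the 208 of KO_PBS, 10.7 times (10.2 to 11.2). It had 136 in the 14 of KO, but 118 of them were in 1 barcode. Slc5a1, a sodium-glucose transporter gene, had 48 UMIs in WT, 14.0 times (10.3 to 18.6), and 826 in KO_PBS, 14.7 times (13.8 to 15.8), in 83.7% of the 208 barcodes against 10.6% of all barcodes, but 4 UMIs in KO, 0.896 times (0.244 to 2.30). Prss22, a serine protease gene, was found in 89.9% of the 208 against 32.4% of all barcodes of KO_PBS, and Plekhs1 in 72.6% against 7.63%, while in KO each was found in 4 of the 14. These shares compare unlike depths, a median of 3461.5 UMIs in the 208 and 1422 in all barcodes of KO_PBS. Against barcodes of like depth, Prss22 had 11.5 times and Plekhs1 12.7 times the expected UMIs in KO_PBS.

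Of 3 further genes, Cxcl2 and Tnf were likewise chosen from their values and Irf1 is on a list described below, and the share of all genes this dense in the set was not computed. Cxcl2, a chemokine for neutrophils, had 269 UMIs in the 208 barcodes of KO_PBS, 48.4 times the expected number (42.8 to 54.6). They lay in 33 of these barcodes, with 65 in 1. The sets of WT and KO held 0, but Cxcl2 was found in only 0.144% and 2.29% of all barcodes there. In sets of 19 and 14 barcodes these 0 values thus do not set the libraries apart. Tnf had 155 UMIs, 16.5 times (14.0 to 19.3), in 84 barcodes of KO_PBS, 6 UMIs in 4 barcodes of WT and 3 UMIs in 1 barcode of KO. Irf1, the transcription factor that acts on Cd274, had 659 UMIs in KO_PBS, 4.00 times (3.70 to 4.32), in WT 42 UMIs, 5.15 times (3.71 to 6.96), and in KO 23 UMIs, 1.67 times (1.06 to 2.51).

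The conjunctival list summed to 3.15 times its expected UMIs in the 208 barcodes (3.04 to 3.27), 1.69 in the 19 of WT (1.47 to 1.93) and 1.10 in the 14 of KO (0.885 to 1.34). Its members did not move alike. Muc4, a membrane mucin gene, stood at 6.33 in KO_PBS and 4.39 in WT, Krt13 at 2.42 and 1.12, and Krt4 at 0.848 and 0.375. T cell markers summed to 0.832 times the expected number in the 208 barcodes (0.703 to 0.977), macrophage markers to 0.867 (0.807 to 0.930), the receptors together to 0.901 (0.565 to 1.36) and photoreceptor markers to 0.585 (0.550 to 0.622). The corneal epithelium list summed to 0.870 (0.854 to 0.886), with Krt12, the main corneal keratin gene, at 1.15. In the 2609 barcodes of KO_PBS with at least 2 Cd274 UMIs, the conjunctival list stood at 1.77 (1.74 to 1.80), the receptors together at 1.29 (1.13 to 1.46), T cell markers at 1.07 (1.02 to 1.12) and macrophage markers at 1.08 (1.05 to 1.10). T cell and macrophage markers thus lay above their expected number in the wider set and below it in the 208 barcodes.

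Of 9 genes of the interferon gamma axis upstream of Cd274, 6 were called higher in KO than in WT, where 20.6% of all genes were, and 6 in KO_PBS, where 57.0% were. The median log2 ratio was 1.47 in KO, beside 0.24 for all genes, and 1.40 in KO_PBS, beside 1.27. In KO_PBS the median and the share called thus lay near their background, which does not hold for each gene. The same background shares hold for the following lists, and for KO_PBS against KO they are 39.9% higher and 4.7% lower. The 3 genes not called in KO_PBS were the receptor chains Ifngr1 at 1.02 times WT (0.994 to 1.05) and Ifngr2 at 1.09 (1.05 to 1.12) and the kinase gene Jak1 at 0.935 (0.920 to 0.951). Between KO_PBS and KO, 0 of the 9 were higher and 1, Ifngr1, lower. Ifng had 1 UMI in WT, 453 UMIs in KO and 382 in KO_PBS. Its ratio of 330 in KO had a wide counting interval (58.9 to 13062) because of that 1 UMI. The ratio of Ifng in KO_PBS, 550, was the largest of the 9 and rests on the same UMI. Socs1, a feedback inhibitor of JAK kinases, was at 3.66 CPM in WT, 29.4 CPM in KO and 16.7 CPM in KO_PBS, a ratio of 8.03 between KO and WT (7.51 to 8.59). None of the 9 was called lower than WT in either library.

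Of 10 partners in the B7 and CD28 families, 8 were called higher in KO relative to WT and 7 in KO_PBS, none was called lower, and 1, Cd160, was higher in KO_PBS than in KO, where 39.9% of all genes were. Btla, an inhibitory receptor of lymphocytes, was at 0.168 CPM in WT, 10.2 in KO and 9.25 in KO_PBS, a ratio of 60.8 in KO (45.1 to 84.2). Cd28, the costimulatory receptor whose ligands Ctla4 shares, was at 0.375, 7.60 and 5.06 CPM, a ratio of 20.3 (16.5 to 25.1). Cd86, a ligand of CD28 and CTLA-4, was at 1.02, 15.0 and 9.67 CPM, a ratio of 14.7 (13.0 to 16.8). Vtcn1, an inhibitory B7 ligand, was not called at 0.638 of its WT level in KO (0.568 to 0.716), nor was Icosl, the ligand of ICOS, at 0.877 of WT in KO_PBS (0.816 to 0.943).

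Of 13 ligands and partners of TIGIT, LAG-3 and TIM-3, 7 were higher and 1 lower in KO than in WT, with Clec4g under the UMI minimum, and 11 were higher in KO_PBS than in WT. Between KO_PBS and KO 3 of the 13 were higher, beside 39.9% of all genes, and 1 lower, beside 4.7%. The MHC class II genes H2-Ab1 and H2-Aa, whose products are ligands of LAG-3, were at 22.9 and 20.7 CPM in WT, at 697 and 613 CPM in KO and at 531 and 703 CPM in KO_PBS. Their ratios between KO and WT were 30.4 (29.7 to 31.2) and 29.5 (28.7 to 30.3). Havcr2, which encodes TIM-3, was at 0.785, 14.9 and 5.65 CPM, a ratio of 18.9 in KO (16.4 to 21.9), and was called lower in KO_PBS than in KO. Fgl1, another LAG-3 ligand, was the gene called lower in KO, with 34, 20 and 102 UMIs.

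Costimulatory receptors and ligands of the TNF family were higher in 8 of 10 cases in KO and in 8 of 10 in KO_PBS, each against WT, and none was lower. Among the others, Tnfsf18 in KO and Cd70 in KO_PBS were under the UMI minimum of these comparisons. Relative to KO, KO_PBS had 2 of the 10 higher (39.9% of all genes) and 1 lower (4.7%). Cd40lg, the T cell ligand of CD40, had 16, 553 and 141 UMIs, a ratio of 25.2 in KO (15.4 to 44.4). Tnfrsf4, which encodes OX40, was at 0.508, 9.00 and 4.88 CPM, and Tnfrsf9, which encodes 4-1BB, at 0.520, 5.41 and 7.50 CPM. Tnfrsf4 was thus highest in KO and Tnfrsf9 highest in KO_PBS.

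Of 6 genes of regulatory T cells, 5 were higher in KO relative to WT and 4 in KO_PBS, where Ccr8 was under the UMI minimum, and KO_PBS had 1 higher (39.9% of all genes) and 2 lower (4.7%) relative to KO. Foxp3, their lineage factor, was at 0.188 CPM in WT, 2.61 in KO and 3.67 in KO_PBS, and Il2ra, a chain of the interleukin-2 receptor, at 0.176, 5.76 and 6.23 CPM. Ccr8, a chemokine receptor, had 1, 93 and 11 UMIs, a ratio of 67.7 in KO with an interval of 11.9 to 2704. Of 7 genes of exhaustion and inhibitory signalling, 5 were higher in KO and 5 in KO_PBS relative to WT, and 2 of the 7 were higher in KO_PBS than in KO, beside 39.9% of all genes. Sh2d1a, an adaptor in lymphocytes, was at 0.367, 3.57 and 4.52 CPM, Nr4a1 at 1.04, 4.30 and 9.16 CPM, and Entpd1, which encodes CD39, at 10.6, 36.6 and 32.4 CPM. Tox, a factor of exhausted T cells, was not called, at 41.8, 54.4 and 59.2 CPM.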

How the data were processed

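The deposited values are raw UMI counts, 1 whole number for each gene in each barcode, of 3 libraries of 3 prime single-cell chemistry. UMIs were counted with Cell Ranger 7.0.1 on build mm10, per the submitters' processing notes. The annotation, intron setting and barcode filter are not given in the sources used here. Gene lists held 32285 genes in WT and KO and 31053 in KO_PBS, and all values use the 30406 common Ensembl IDs, which hold at least 99.3% of the UMIs.

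All deposited barcodes were kept. No doublet caller was run. Counts below 3 were set to 3 for a call. Ratios have exact conditional binomial intervals. Marker-rich sets rank barcodes by (observed - expected)/sqrt(expected). Expected UMIs of carriers come from barcodes without Cd274 in 20 bins of total UMIs. The rule was tested on simulated Poisson counts from 1 profile pooled over WT and KO. They hold no library or tissue differences beyond those set, so they do not bear on replicate spread. Members and lists were chosen with earlier results of these data known. Named genes are all 7 members, the 8 most like Cd274 and, per list, the 3 largest ratios each way between KO and WT, and others were chosen after their values were seen. Hhla2 was not measured. Values of 1 listed gene and 1 motif are not reported here. Gene positions are from a GENCODE annotation of GRCm38, the same assembly as mm10. Tools were scipy 1.17.1, numpy 2.4.6, pandas 2.3.3 and matplotlib 3.10.9 under Python 3.11.15.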

Additional observations from a re-analysis of the deposited data

How the results depend on the processing

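Requiring a 4-fold ratio or centring on the median gene left 0 members called higher between KO_PBS and KO instead of 1, with 4 lower after centring. Receptor UMIs per 100 CD3 UMIs were 194, 63.7 and 88.4 in WT, KO and KO_PBS, instead of 14.8, 15.4 and 14.0 per 100 UMIs of the full T cell list, so KO lay above KO_PBS on the full list and below it on the CD3 scale, and WT moved from the middle to the highest value. The share of barcodes with Cd274 was 1.52%, 3.43% and 5.76% when thinned to 500 UMIs and 5.75%, 12.8% and 21.4% at 2000 UMIs, in the same order of libraries. At 2000 UMIs 95456 barcodes of KO_PBS were too shallow. Of the 8 genes most like Cd274, 0 were among the first 8 with at least 1 Cd274 UMI, 2 without the 5% of barcodes with the most UMIs and 1 with at least 5 Cd274 UMIs, a choice added after the data were seen, so the ranking depends on these settings. The cause was not tested. All 8 still had at least their expected UMIs in every library in the first pair of settings, and 7 did with at least 5 Cd274 UMIs. Each of these settings shares barcodes with the set that chose the genes, so such values were nearly assured. The other 28 of 42 alternatives for these main values stayed within their limits, as did 130 of 144 for single genes and sets. The limits were wide for counts, since 5 instead of 7 members called between KO_PBS and WT lay within them. No ratio between libraries of a single member changed sign, but a changed UMI minimum or fold cannot alter a ratio. The barcode filter kept 99.95% (WT), 99.99% (KO) and 97.8% (KO_PBS) of barcodes, so it could change little. In the T cell set the receptors stood at 4.82 (WT), 3.35 (KO) and 5.08 (KO_PBS) times their library level with 200 barcodes and at 2.59, 2.38 and 3.13 with 1000, instead of 2.67, 2.68 and 3.89. No paired analysis was possible because each group has 1 library.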
